A study of Mus musculus with 4 samples.

Results

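Matricellular proteins are secreted into the extracellular matrix, where they bind cells, growth factors and structural fibres but do little to carry load themselves. The set described here holds 9 genes: the thrombospondins Thbs1, Thbs2, Thbs3 and Thbs4, and Postn, Fn1, Tnc, Spp1 and Sparc. Its members were all probe sets of the array that the platform annotation gives to exactly 1 of these symbols. They came to 15 of 45037 probe sets and covered 8 of the 9 genes. Spp1 was not analysed here, and 1 further probe set shared by Thbs1 and another symbol was left out.

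The data were 4 Affymetrix mouse expression arrays, each of total RNA from the snap-frozen heart of a mouse. Per the labels, 2 arrays came from mice with a Sirt1 transgene (Tg-Sirt1 1 and Tg-Sirt1 2) and 2 from wild type mice (NTg 1 and NTg 2). Sirt1 is an NAD-dependent protein deacetylase, and the series title names its regulation of cardiac gene expression as the question. All mice were killed with pentobarbital. The sources used here do not give sex, age, strain, transgenic line or the promoter that drives the transgene.

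Thrombospondins fall into a trimeric class, Thbs1 and Thbs2, which can inhibit blood vessel growth and, for Thbs1, release active TGF-beta, and a pentameric class, to which Thbs3, Thbs4 and the cartilage protein Comp belong. In the mouse heart Thbs4 is known to rise with injury and pressure load, and part of it acts inside the cell, in the endoplasmic reticulum, together with the stress sensor Atf6. Periostin (Postn), fibronectin (Fn1), tenascin C (Tnc), osteopontin (Spp1) and Sparc are made largely by fibroblasts or, for osteopontin, macrophages in injured hearts, and mark matrix that is being built or remodelled.

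The 250 bases before the annotated gene start are shown for 5 members, chosen by the brightest probe set of each. They include the thrombospondins for which it was lowest on NTg 2. They also include the matrix genes Postn and Sparc, for which it was lower on both NTg 2 and Tg-Sirt1 2 than on the other arrays. The bases are RefSeq sequences of the mouse build GRCm38.p6, printed on the strand of the gene. Promoter entries matched 7 of the 9 genes, all but Thbs1 and Fn1. Capitals mark matches, on either strand, to any of 6 motifs. These were the TATA box with the letters TATAAA, the CCAAT box, the GC box with the letters GGGCGG, the AP-1 site with the letters TGANTCA, the SMAD-type CAGA box with the letters CAGACA and the E box with the letters CACGTG. No 2 of the matches overlapped.
Thbs4, chr13:92794819-92795068, minus strand: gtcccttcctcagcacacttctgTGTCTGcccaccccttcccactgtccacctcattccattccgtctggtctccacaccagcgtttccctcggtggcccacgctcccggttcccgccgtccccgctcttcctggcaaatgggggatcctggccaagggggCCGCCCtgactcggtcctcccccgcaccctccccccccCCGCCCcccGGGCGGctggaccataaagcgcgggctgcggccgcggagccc
Thbs3, chr3:89214930-89215179, plus strand: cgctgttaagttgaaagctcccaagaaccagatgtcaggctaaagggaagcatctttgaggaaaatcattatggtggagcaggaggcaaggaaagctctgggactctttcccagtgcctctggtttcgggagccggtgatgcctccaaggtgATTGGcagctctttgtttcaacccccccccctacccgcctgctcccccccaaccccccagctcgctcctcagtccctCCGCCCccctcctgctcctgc
Thbs2, chr17:14694263-14694512, minus strand: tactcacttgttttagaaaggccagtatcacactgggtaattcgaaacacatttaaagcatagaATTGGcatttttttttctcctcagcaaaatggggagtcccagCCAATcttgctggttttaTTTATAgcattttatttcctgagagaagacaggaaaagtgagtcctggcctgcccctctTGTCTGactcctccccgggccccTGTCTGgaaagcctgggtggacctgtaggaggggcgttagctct
Postn, chr3:54359017-54359266, plus strand: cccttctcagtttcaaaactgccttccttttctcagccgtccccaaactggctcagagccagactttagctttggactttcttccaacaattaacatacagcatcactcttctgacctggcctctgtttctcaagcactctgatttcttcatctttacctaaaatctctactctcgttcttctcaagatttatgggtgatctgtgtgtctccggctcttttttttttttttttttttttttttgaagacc
Sparc, chr11:55420081-55420330, minus strand: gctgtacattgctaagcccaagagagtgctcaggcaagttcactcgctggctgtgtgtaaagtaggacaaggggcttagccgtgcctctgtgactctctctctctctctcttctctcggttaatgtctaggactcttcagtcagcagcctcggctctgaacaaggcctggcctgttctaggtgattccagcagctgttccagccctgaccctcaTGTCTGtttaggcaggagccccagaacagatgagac

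Thbs4, Thbs2 and Sparc each held a CAGACA match, found in 17.1% of 32851 promoters of the same length, and Thbs2 held 2. Thbs2 also matched the CCAAT box, as did Thbs3 (in 33.8% of all promoters), and the TATA box letters (in 12.4%). Thbs4 held 3 GC boxes and Thbs3 held 1 (in 32.7% of all promoters), and Thbs4 was the richest of the 5 in G and C at 70.8%, against a median of 52.4% over all promoters. The AP-1 site, in 6.75% of all promoters, and the E box, in 6.02%, were not found in these 5. Postn matched none of the 6 motifs in this window, so these 5 windows had no motif in common. A second, downstream Postn entry, chr3:54360857-54361106, matched the TATA box letters from 26 to 21 bases before its start. A match of letters is a description of the sequence and not a measured binding site.

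Before any comparison, some features of the arrays bear on all values that follow. The array labelled Tg-Sirt1 1 and NTg 1 were near-identical: over all probe sets their differences had an SD of 0.0759 log2 units, against 0.342 to 0.405 in the other 5 pairs of arrays, and over the 15 member probe sets the largest difference was 0.11. Whether they come from 2 hearts could not be tested here, and if they share RNA, or if 1 of them carries the wrong label, the means, SDs and n below do not describe 2 separate mice of each label. No array was moved, and arrays are called by their labels. A difference given without NTg 2 sets both Tg-Sirt1 arrays against a near copy of 1 of them. It thus mostly follows Tg-Sirt1 2 minus Tg-Sirt1 1, a gap within 1 label. Sirt1 itself read 7.16 and 7.93 in Tg-Sirt1, against 7.30 and 7.17 in NTg, so that 1 of the 2 transgenic labels came with a higher signal of its probe set. Control transcripts give a 3' minus 5' signal, which is larger when less 5' RNA is labelled. For Gapdh it was 0.19 and 1.34 in Tg-Sirt1, against 0.18 and 0.69 in NTg. It was thus larger on Tg-Sirt1 2 and NTg 2 than on the near-identical pair, and its part in the values below was not tested. All 8 cardiomyocyte markers listed, among them Myh6 and Tnnt2, lay above the 90th percentile of every array. All values below are RMA values on the log2 scale, in which a difference of 1 is a doubling. They are given per label in the order array 1, array 2.

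Of the members, Thbs4 varied the most over the arrays, and it did so through 1 array. Its only probe set (1449388_at) read 10.79 and 10.76 in Tg-Sirt1, against 10.81 and 8.72 in NTg. The wild type array NTg 2 was low and the other arrays lay within 0.05 of NTg 1. The 2 wild type arrays were thus 4.26-fold apart, a larger difference than that of all but 0.0844% of probe sets in this pair. The mean was 10.78 ± 0.02 in Tg-Sirt1 and 9.77 ± 1.48 in NTg (SD, n = 2 each), which is a difference of 1.01 ± 0.67 (SE, 95% confidence interval -0.69 to 2.71, limma adjusted p = 0.996). Without NTg 2 the difference was -0.035, and without NTg 1 it was 2.055, so the label difference of Thbs4 rested on NTg 2.

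Thbs3, the other pentameric thrombospondin in the set, followed the same order with a smaller span. Its probe set read 7.27 and 6.78 in Tg-Sirt1, against 7.32 and 6.45 in NTg. Here Tg-Sirt1 2 was also below the near-identical pair, and the groups overlapped. The label difference was 0.14 ± 0.34 (SE) and turned to -0.295 without NTg 2.

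The trimeric thrombospondins spanned less over the arrays than Thbs3 and Thbs4. The brightest Thbs2 probe set (1422571_at) read 8.42 and 8.49 in Tg-Sirt1, against 8.37 and 7.91 in NTg. It was the only member probe set with both Tg-Sirt1 values above both NTg values, which 9.59% of all probe sets showed, and NTg 2 was again the lowest. Its difference was 0.315 ± 0.19 (SE, limma adjusted p = 0.996), and 0.085 without NTg 2.

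The other Thbs2 probe sets did not share the low value on NTg 2. Probe set 1450663_at read 8.15 and 8.29 in Tg-Sirt1, against 8.13 and 8.20 in NTg. Probe set 1447862_x_at read 7.06 and 7.19 in Tg-Sirt1, against 6.96 and 7.40 in NTg, and was highest on NTg 2. Both were lowest on NTg 1, unlike the brightest one, and the suffix _x_at marks probes that may match other transcripts too.

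Thbs1, the TGF-beta activator, was close to level. Its brighter probe set (1460302_at) read 7.29 and 7.21 in Tg-Sirt1, against 7.22 and 7.44 in NTg. The dimmer one (1450377_at) read 6.50 and 6.36 in Tg-Sirt1, against 6.61 and 6.45 in NTg. Both spanned at most 0.25 log2 units, the groups overlapped, and the differences of -0.08 and -0.10 were smaller than their standard errors of 0.14 each.

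**Figure D1:**
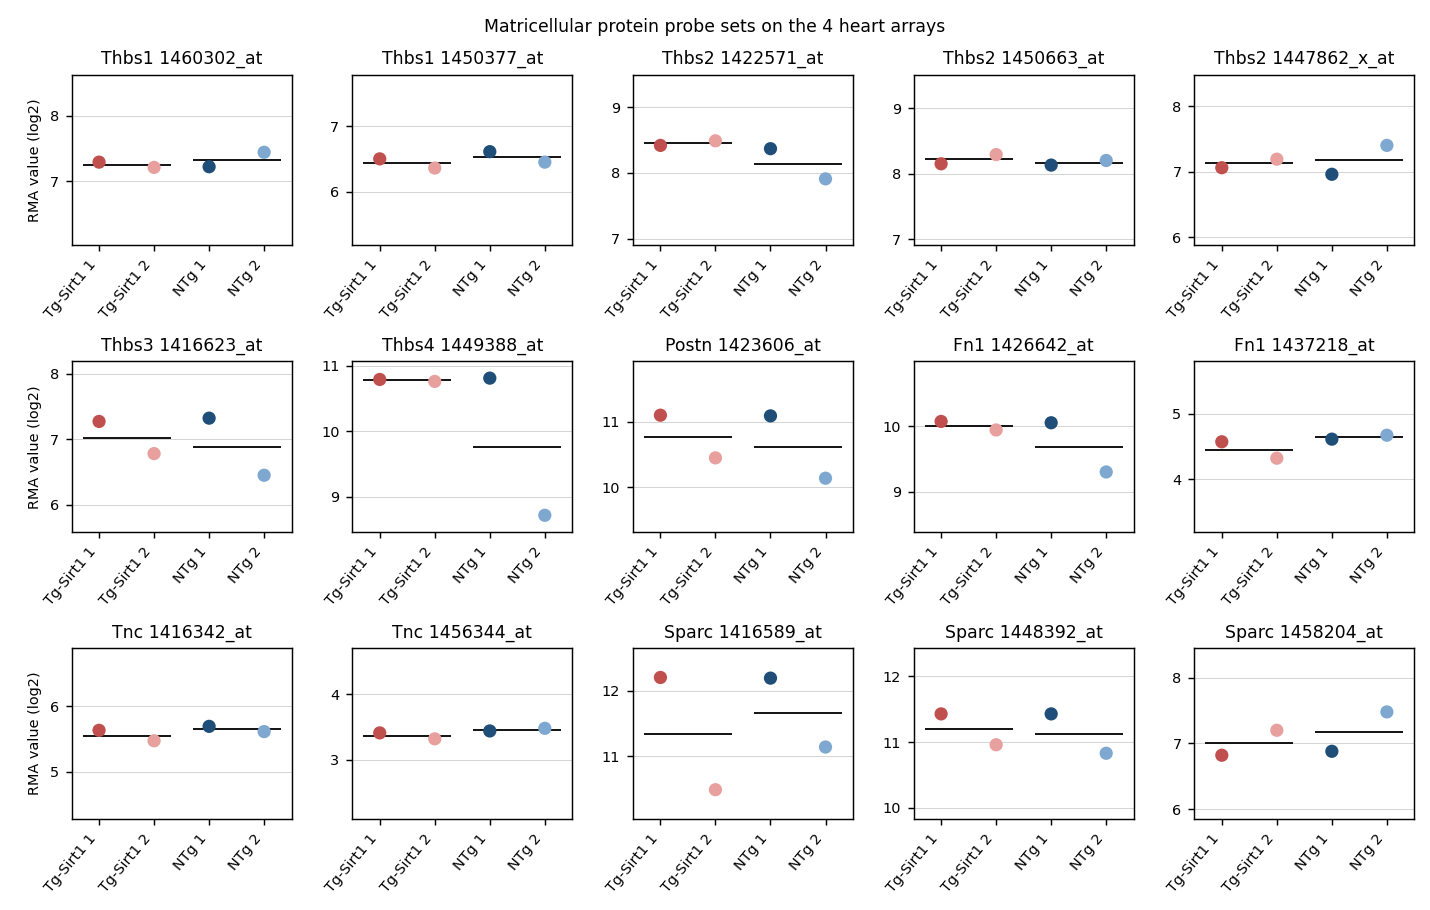
RMA values (log2, vertical axis) of the 15 member probe sets on the 4 arrays, Tg-Sirt1 left of NTg, with a black line at the mean of each label. Every panel spans 2.6 log2 units, and the point of NTg 2 for Thbs4 (8.72) and that of Tg-Sirt1 2 for Sparc 1416589_at (10.49) stand farthest from the other arrays.

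Among the other matrix proteins, periostin, a marker of activated cardiac fibroblasts, had its highest values on the near-identical pair. Postn read 11.10 and 10.45 in Tg-Sirt1, against 11.09 and 10.14 in NTg. Each label thus had 1 high and 1 lower array, NTg 2 being 1.93-fold below NTg 1 and Tg-Sirt1 2 being 1.57-fold below the array labelled Tg-Sirt1 1. The means of 10.78 ± 0.46 in Tg-Sirt1 and 10.62 ± 0.67 in NTg (SD, n = 2 each) differed by 0.16 ± 0.38 (SE), less than the spread within either label. The difference was -0.315 without NTg 2 and -0.165 without the array labelled Tg-Sirt1 1.

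Fibronectin, an adhesive glycoprotein that binds integrins and collagen, was lower mainly on NTg 2. The brighter Fn1 probe set (1426642_at) read 10.07 and 9.94 in Tg-Sirt1, against 10.05 and 9.30 in NTg. NTg 2 was 1.68-fold below NTg 1, and the label difference of 0.33 ± 0.27 (SE) became -0.045 without NTg 2. The second probe set (1437218_at), which was below the median of every array, read 4.57 and 4.32 in Tg-Sirt1, against 4.61 and 4.67 in NTg. It had the lower values in Tg-Sirt1, by 0.195 ± 0.15 (SE), and no low value on NTg 2.

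Tenascin C, which is made in the developing and the injured heart, gave a dim signal throughout. Its brighter probe set (1416342_at) read 5.63 and 5.47 in Tg-Sirt1, against 5.69 and 5.61 in NTg. The other (1456344_at) read 3.41 and 3.32 in Tg-Sirt1, against 3.44 and 3.48 in NTg. Both lay below the median of all 4 arrays and spanned at most 0.22 log2 units, and whether these signals were above background is not known here, since detection calls were not used.

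Sparc, a collagen-binding protein needed for collagen fibre assembly in the mouse heart, had 3 probe sets that did not move together. The brightest (1416589_at) read 12.20 and 10.49 in Tg-Sirt1, against 12.19 and 11.14 in NTg. Here Tg-Sirt1 2 was lowest, 3.27-fold below the array labelled Tg-Sirt1 1, a difference that 0.462% of probe sets exceeded in that pair, while NTg 2 was 2.07-fold below NTg 1. A second probe set (1448392_at) read 11.43 and 10.96 in Tg-Sirt1, against 11.43 and 10.83 in NTg, so that the gap between the Tg-Sirt1 arrays was only 1.39-fold and NTg 2 was lowest.

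The third Sparc probe set (1458204_at) went the other way, with 6.82 and 7.20 in Tg-Sirt1, against 6.88 and 7.48 in NTg. It was lowest on the near-identical pair, where the bright probe sets were highest. The label differences of the 3 were -0.32 ± 0.64, 0.065 ± 0.27 and -0.17 ± 0.26 (SE), with 95% confidence intervals that all included 0, and the second turned to -0.03 after a second quantile normalization. The first turned to 0.535 without Tg-Sirt1 2 and 0.205 without NTg 1, and was -0.845 without NTg 2 and -1.175 when the array labelled Tg-Sirt1 1 was left out. The 3' minus 5' signal of the control transcripts, which is larger when less 5' RNA is labelled, was also largest on Tg-Sirt1 2, with 1.25 and 1.92 in Tg-Sirt1, against 1.22 and 1.44 in NTg, for Actb, and 0.19 and 1.34 in Tg-Sirt1, against 0.18 and 0.69 in NTg, for Gapdh. Its part in the Sparc values was not tested.

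Between the labels, no member passed the test. In limma 0 of the 15 probe sets had an adjusted p under 0.05, against 0% of all probe sets, and 0 of 15 had an unadjusted p under 0.05, against 0.0622% of all (28 probe sets). The differences depended on single arrays. When NTg 1 was left out they were 2.055 for Thbs4, 0.545 for Thbs2 1422571_at and 0.705 for Fn1 1426642_at. Without NTg 2 they were -0.035, 0.085 and -0.045. With 1 array left out a label holds a single array, so the spread within that label is not measured. The mean of Tg-Sirt1 was higher for 7 of the 15 probe sets and lower for 8, against a higher mean in 45.6% of all. After a second quantile normalization 5 of 15 were higher, against 49.2% of all. With the brightest probe set per gene it was higher for 5 of 8 genes, against 53.1% of all genes. The median difference was -0.055 over the 15 probe sets, against -0.015 over all, and 0.15 over the 8 genes, against 0.015. Without NTg 2 the median over the 8 genes was -0.093 with 2 of 8 higher (56.5% of all genes), and it was -0.113 with 3 of 8 higher when the array labelled Tg-Sirt1 1 was left out. It was 0.56 without NTg 1 and 0.39 without Tg-Sirt1 2. The groups did not overlap at 3 probe sets, Thbs2 1422571_at and the dim Fn1 1437218_at and Tnc 1456344_at, against 21% of all probe sets. The counts of higher means and of groups that do not overlap are near the background. When an array of 1 label nearly equals an array of the other, the ordinary t of 2 against 2 cannot much exceed 1.41 in size, and the exact permutation test of 4 arrays cannot give a two-sided p below 0.333, so a missed threshold says nothing of likeness between the hearts.

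**Figure D2:**
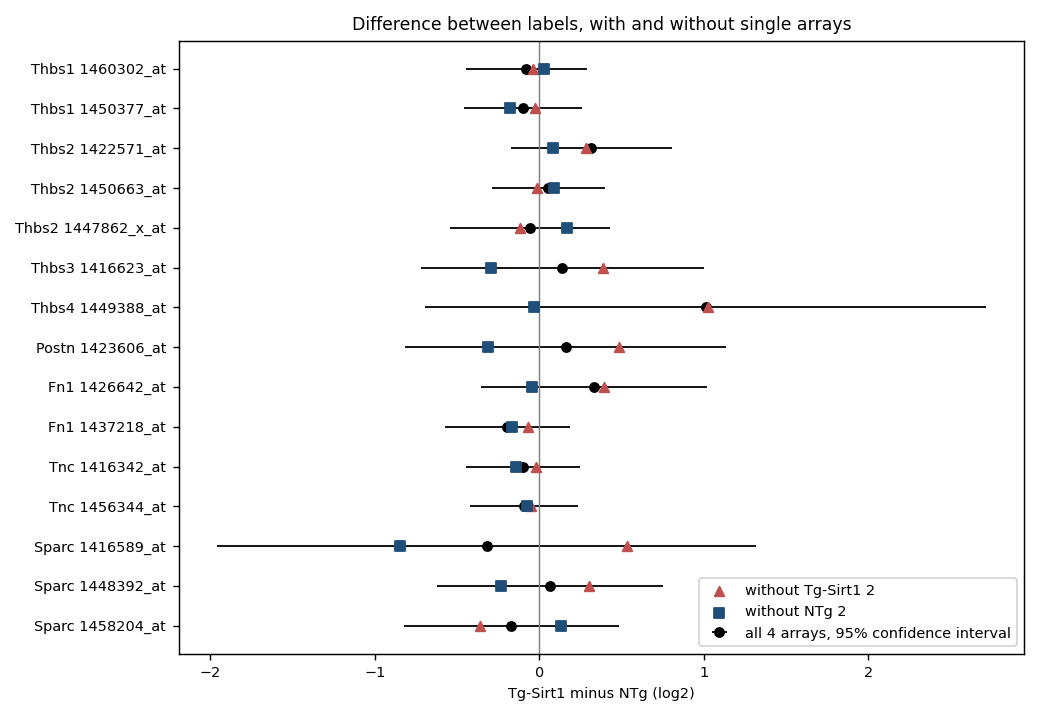
Tg-Sirt1 minus NTg (log2, horizontal axis) for the 15 member probe sets, with black points and 95% confidence intervals from limma on all 4 arrays and coloured symbols for the difference without 1 array. All intervals include 0, and for Thbs4 the difference was -0.035 without NTg 2 and 1.01 with all arrays.

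The differences of the members from array to array lay mostly with NTg 2 and Tg-Sirt1 2. This held over all probe sets too, since the other arrays were near-identical. NTg 2 was alone the lowest of the 4 arrays for 6 of the 15 probe sets, against 29.6% of all, and Tg-Sirt1 2 alone the lowest for 6 others, against 29.2%. NTg 2 was alone the highest for 5 of the 15, against 38.5% of all, and Tg-Sirt1 2 for 2, against 30.1%. Thbs3, Thbs4, Postn, the brighter Fn1 probe set and both bright Sparc probe sets were more than 1.5-fold lower on NTg 2 than on NTg 1, which makes 6 of 15, against 5.78% of all probe sets, whereas the third Sparc probe set was 1.52-fold higher there. Of the 12 member probe sets at or above the median of every array these were 6, against 9.54% of the probe sets that bright. On Tg-Sirt1 2 the same limit below the array labelled Tg-Sirt1 1 took in 2 of the 12, Postn and the brightest Sparc probe set, against 6.96%. The members were chosen with earlier results of these arrays known, so these shares describe 2 pairs of single arrays and carry no test.

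**Figure D3:**
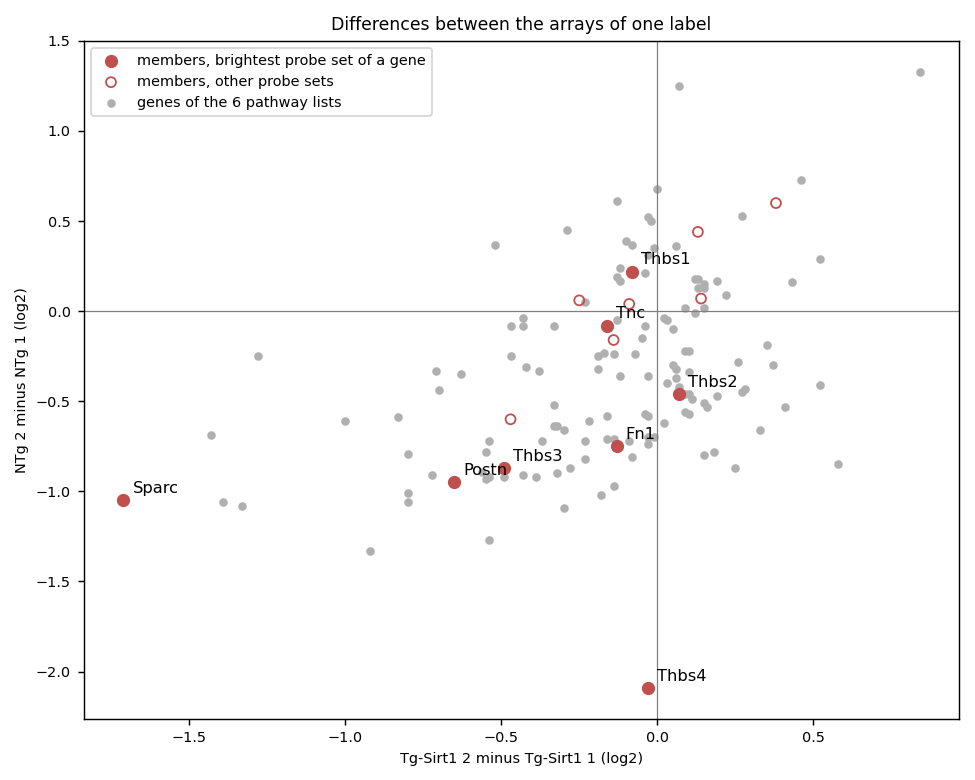
Difference between the arrays of each label (log2): Tg-Sirt1 2 minus Tg-Sirt1 1 on the horizontal axis and NTg 2 minus NTg 1 on the vertical axis, for the brightest probe set of each member (filled), the other member probe sets (open) and the genes of 6 related lists (grey). Thbs4 lies at -0.03 and -2.09, low on NTg 2 alone, whereas Sparc at -1.71 and -1.05, Postn and Thbs3 were low on both axes.

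Genes that work with these proteins were taken from 6 lists, with 1 probe set per gene. In limma none of their members passed in either direction, and none had an unadjusted p under 0.05, against 0% and 0.055% of 18193 genes. NTg 2 was alone the lowest array for 20 of 24 fibrillar and structural matrix genes and 15 of 20 TGF-beta pathway genes, against 37.9% of all genes. It was so for 13 of 26 other matricellular genes, 11 of 20 receptors, 10 of 18 genes of Atf6 and protein folding and 8 of 19 matrix proteases and inhibitors. Tg-Sirt1 2 was alone the lowest for 4 of 24, 4 of 20, 7 of 26, 5 of 20, 2 of 18 and 5 of 19 genes in the same order of lists, against 23.2% of all genes.

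The median label difference was 0.22 for structural matrix and 0.21 for the TGF-beta pathway, with 20 of 24 and 16 of 20 genes having the higher mean in Tg-Sirt1, against a median of 0.015 and 53.1% over all genes. Both medians were below 0 without NTg 2, at -0.163 and -0.053, and 0.702 and 0.52 without NTg 1. The values without NTg 2 mostly follow Tg-Sirt1 2 minus Tg-Sirt1 1, which had list medians of -0.325 and -0.085. In the structural list the collagen gene Col8a1 read 9.51 and 9.76 in Tg-Sirt1, against 9.47 and 8.60 in NTg. The large proteoglycan gene Vcan read 7.54 and 8.12 in Tg-Sirt1, against 7.60 and 6.75 in NTg. The collagen-processing enhancer Pcolce had a difference of 0.485. The TGF-beta signal transducer Smad3 (0.515) and the receptors Tgfbr1 (0.465) and Tgfbr2 (0.36) were highest on Tg-Sirt1 2 and lowest on NTg 2.

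The receptors of matricellular proteins had a median of 0.08, which was 0.015 without NTg 2 and 0.305 without NTg 1. The integrin subunit gene Itgb8 (0.465), the hyaluronan and osteopontin receptor gene Cd44 (0.53) and the laminin-binding integrin gene Itga6 (0.36) had the smallest p on that list. Cd44 read 7.57 and 7.98 in Tg-Sirt1, against 7.51 and 6.98 in NTg. The thrombospondin receptors, named here after their values were seen, did not move alike: Cd36 read 12.18 and 12.17 in Tg-Sirt1, against 12.20 and 12.55 in NTg, and was highest on NTg 2, where Thbs4 was low. Cd47 read 10.90 and 10.68 in Tg-Sirt1, against 10.89 and 10.28 in NTg.

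The other matricellular genes had a median of -0.008, and of -0.105 to 0.162 with single arrays left out. Ccn3 (-0.485), Spock3 (-0.39) and Ccn6 (-0.25) had the smallest p, each highest on NTg 2 and lowest on Tg-Sirt1 2. Comp, the pentameric relative of Thbs4 and named after its values were seen, read 8.64 and 8.09 in Tg-Sirt1, against 8.64 and 7.86 in NTg. It was thus lowest on NTg 2, as Thbs3 and Thbs4 were, with a smaller gap than that of Thbs4. The brightest probe set of the trimeric Thbs2 was lowest there too, as were 37.9% of all genes. Tg-Sirt1 2 minus Tg-Sirt1 1 was -0.55 for Comp and -0.49 for Thbs3, against -0.03 for Thbs4.

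The proteases and inhibitors had a median of 0.005 (-0.085 to 0.035 with single arrays left out), with the plasminogen activator gene Plat at 0.44, the stromelysin gene Mmp3 at -0.23 and the metalloprotease inhibitor gene Timp4 at -0.52. Timp4 read 6.62 and 6.69 in Tg-Sirt1, against 6.55 and 7.80 in NTg, with NTg 2 high, the opposite of Thbs4. The list of Atf6 and folding partners had a median of 0.09 (0.025 to 0.135 with single arrays left out). Its genes of smallest p were the folding factor gene Creld2 (0.36), the secreted stress factor gene Manf (0.325) and the stress transcription factor gene Xbp1 (0.325), each lowest on NTg 2. Atf6, named after its values were seen, read 10.36 and 10.32 in Tg-Sirt1, against 10.36 and 9.79 in NTg. On the same list Herpud1, Hyou1 and Sdf2l1, also named after their values were seen, were instead highest on NTg 2. Herpud1 read 10.80 and 10.80 in Tg-Sirt1, against 10.75 and 11.43 in NTg.

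**Figure D4:**
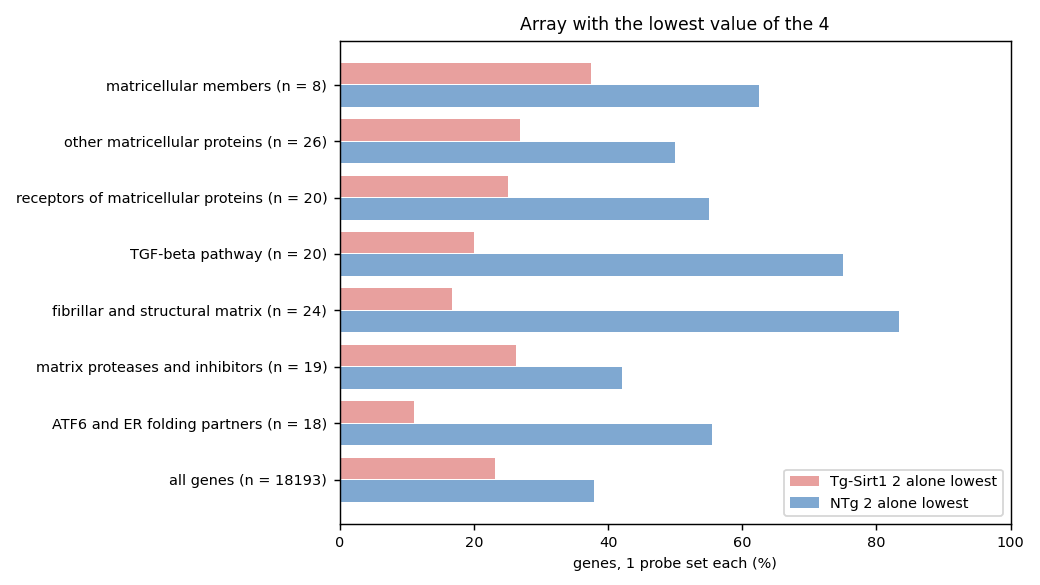
Percent of genes (horizontal axis, 1 probe set each) for which Tg-Sirt1 2 or NTg 2 alone had the lowest value of the 4 arrays, for the members, the 6 related lists and all genes. NTg 2 was lowest for 62.5% of the 8 members and 83.3% of the structural matrix genes, against 37.9% of all genes.

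Markers of fibroblasts, which make matrix, were set beside these values. The 10 markers, among them Pdgfra, Tcf21, Lum and Col1a1, were all lower on NTg 2 than on NTg 1. On Tg-Sirt1 2, 8 of 10 were lower than on the array labelled Tg-Sirt1 1. Pdgfra (9.81 and 9.97 in Tg-Sirt1) and Dpt (11.33 and 11.40) were higher there, and Ddr2 was lowest on Tg-Sirt1 2 and not on NTg 2. The gaps on NTg 2 and on Tg-Sirt1 2 had list medians of -0.815 and -0.4, against -0.01 and 0.04 over all genes. The summed linear signal was 37479 and 28570 in Tg-Sirt1, against 37718 and 22221 in NTg. As for Postn and Thbs3, this sum, led by its brightest markers Gsn and Dcn, was lower on Tg-Sirt1 2 than on the near-identical pair. It was lowest on NTg 2. The brightest Thbs1, Tnc and Sparc probe sets were instead lowest on Tg-Sirt1 2. Lower markers were not particular to fibroblasts, but no other marker list had so low a median gap on NTg 2. In the same order, 8 and 7 of 8 were lower for cardiomyocytes, with median gaps of -0.085 and -0.15. They were 7 and 7 of 8 for smooth muscle and pericytes (-0.18 and -0.33) and 7 and 6 of 8 for endothelium (-0.385 and -0.06). Macrophages had 6 and 4 of 8, mesothelium 6 and 2 of 8, and tendon and valve 4 and 2 of 7. The counts were 2 and 2 of 8 for skeletal muscle, 1 and 1 of 8 for platelets and 0 and 3 of 6 for neutrophils. Of the fibroblast markers Col1a1, Col1a2, Col3a1, Dcn and Lum are also on the structural list, and Dpt is on that of other matricellular genes. In whole heart RNA, fewer cells of a type and less RNA per cell cannot be told apart, and the part of fibroblast content in the member values was not tested.

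Markers of other cells were summed in the same way. The 8 smooth muscle and pericyte markers summed to 18960 and 16073 in Tg-Sirt1, against 18938 and 12129 in NTg. That sum followed its brightest marker Acta2, at 13.21 and 12.92 in Tg-Sirt1, against 13.20 and 11.83 in NTg. Tagln, at 10.13 and 9.13 in Tg-Sirt1, against 10.16 and 10.11 in NTg, was instead lowest on Tg-Sirt1 2, and the list medians were -0.33 for Tg-Sirt1 2 minus Tg-Sirt1 1 and -0.18 for NTg 2 minus NTg 1. The 8 cardiomyocyte markers summed to 115985 and 105563 in Tg-Sirt1, against 116406 and 110941 in NTg. The 8 platelet markers summed to 1576 and 3075 in Tg-Sirt1, against 1603 and 2411 in NTg. Platelets store Thbs1 protein, and their part in the Thbs1 values was not tested. The 8 macrophage markers summed to 5080 and 4898 in Tg-Sirt1, against 5089 and 4071 in NTg. The 8 endothelial markers summed to 12322 and 11114 in Tg-Sirt1, against 12398 and 10951 in NTg. The 7 tendon and valve markers summed to 1096 and 877 in Tg-Sirt1, against 1095 and 856 in NTg, with 4 of the 7 below the median of each array. The 6 neutrophil markers measured summed to 491 and 539 in Tg-Sirt1, against 494 and 938 in NTg, and were the highest on NTg 2. The 8 mesothelial markers summed to 595 and 657 in Tg-Sirt1, against 588 and 472 in NTg. The 8 skeletal muscle markers summed to 8982 and 6225 in Tg-Sirt1, against 8999 and 7521 in NTg, a sum led by Ckm, which heart muscle also expresses. On each array 6 of these 8 were below the median, and 2 of 8 were lower on NTg 2 than on NTg 1.

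Over the 4 arrays, the genes whose centred profile lay closest to that of Thbs4 were Tmprss4, a membrane serine protease gene, at a Euclidean distance of 0.03 log2 units, Ripor2 at 0.187, Bend4 at 0.193, Egflam, a matrix protein gene, at 0.256, and Enpep, an aminopeptidase that cleaves angiotensin II, at 0.272. Tmprss4 read 8.32 and 8.28 in Tg-Sirt1, against 8.37 and 6.25 in NTg. All 5 were lowest on NTg 2, which their choice by likeness to Thbs4 fixed in advance. Egflam, at 8.68 and 8.37 in Tg-Sirt1, against 8.73 and 6.43 in NTg, was also lower on Tg-Sirt1 2 than on the near-identical pair. Among the members the nearest to Thbs4 was Fn1, at rank 481 of 18193 genes by distance (1.168), followed by Postn at 757, Thbs3 at 835 and Thbs2 at 1314. The distance was not scaled by span, so genes of the same order with a smaller span lie farther away.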

How the data were processed

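The authors deposited 1 log2 value per probe set and array, with 2 decimals. The tools named, per the submitters' processing notes, are Affymetrix Expression Console and RMA, with no version. RMA corrects background, quantile normalizes and summarises probes, which removes changes in total RNA and damps those of dim probe sets. Scanner files were not used here, and precision is limited by the number of arrays.

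Of 45101 probe sets, 64 controls were left out. Symbols came from the platform annotation: 34945 probe sets had 1 symbol, 932 several and 9160 none here. Per gene, the probe set of highest mean stood for 18193 genes. Tg-Sirt1 was compared with NTg in limma 3.58.1 (R 4.3.3; lmFit, eBayes; 2 residual and 3.1 prior degrees of freedom), two-sided, with Benjamini-Hochberg adjustment over all probe sets or all genes and a threshold of 0.05. P-values measure the spread between these 4 arrays, the near-identical pair included. The code was checked on simulated data.

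The named genes were all members, the 3 of smallest p on each of 6 lists, and the 5 nearest to the member of widest range. The 10 lists of cell markers were summed on the linear scale. Members and lists were chosen with earlier results of these data known. Alternatives covered a replicate block, each array left out, the near-identical pair counted once, a filter on dim probe sets, scaling, an offset of 16, the prior, probe set suffixes and the mean over probe sets.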

Additional observations from a re-analysis of the deposited data

How the results depend on the processing

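Under the 13 alternatives to the fit over probe sets, 167 of 191 member values kept their sign. Even so, 11 of the 15 member probe sets turned in at least 1 alternative. The replicate block, the prior and the filters on dim probe sets and suffixes leave each difference as it was, so no sign could turn there. In the alternatives that keep 2 arrays per label, no member, no other probe set and no list gene passed in limma. Leaving out single arrays gave a median over the member probe sets of -0.12 to 0.02. It gave 5 to 8 probe sets with the higher mean in Tg-Sirt1 (44.4% to 52.6% of all probe sets). With 1 probe set per gene, the median over the 8 genes was -0.113 to 0.56, with 2 to 6 higher. Ranges that crossed 0 were -0.035 to 2.055 for Thbs4, -0.295 to 0.575 for Thbs3, -0.315 to 0.635 for Postn and -0.045 to 0.705 for Fn1 1426642_at. For Sparc they were -1.175 to 0.535 (1416589_at), -0.235 to 0.365 (1448392_at) and -0.47 to 0.13 (1458204_at), for Thbs2 -0.015 to 0.125 (1450663_at) and -0.275 to 0.165 (1447862_x_at), and for Thbs1 1460302_at -0.19 to 0.03. With the near-identical pair averaged as NTg, Thbs3 was -0.093, Postn -0.168, Sparc 1448392_at -0.17, Sparc 1458204_at 0.035 and the median over the 8 genes -0.115 with 3 higher. With the pair as Tg-Sirt1, Thbs1 1450377_at was 0.008, Sparc 1416589_at 0.203 and that median 0.56 with 6 higher. In both fits the label left with 1 array has no measured spread of its own. After a second quantile normalization Thbs2 1450663_at was -0.01 and Sparc 1448392_at -0.03. The fits with the pair counted once, and those without a single array, leave 1 array under 1 label, which is assumed to vary like the others. Leaving out NTg 2 sets the mean of both Tg-Sirt1 arrays against a near copy of 1 of them. The filter on dim probe sets left 12 of the 15. With each gene's probe sets averaged the 8 genes kept their sign, with Fn1 at 0.067, Thbs2 at 0.105 and Sparc at -0.142. With replicate number as a replicate block, 0 member probe sets were called. The median of -0.055 and the 7 with the higher mean in Tg-Sirt1 could not change there, since each label holds both numbers. Deviations of same-numbered arrays correlated at 0.29 over all probe sets, where the near-identical pair shares number 1. No signal over background was used, so the dim Tnc and Fn1 1437218_at values were not set against background.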
